A study of Mus musculus with 12 samples.

Results

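Tnfrsf11b, Csf1 and Sema3a encode secreted signals by which bone-forming osteoblasts act on bone-resorbing osteoclasts, and their transcripts were followed here in mouse calvarial pre-osteoblasts exposed to the histone deacetylase inhibitor SAHA (vorinostat). All probes annotated to these 3 gene symbols were taken, which gave 4 probes of the 45281 on the Illumina mouse BeadChip: ILMN_2513826 for Tnfrsf11b, ILMN_1254561 for Csf1, and ILMN_2684289 and ILMN_2572191 for Sema3a. All 4 were among the 16431 probes kept for testing, those with a detection p under 0.01 on at least 4 of the 12 arrays, and the kept probes stood for 9153 genes.

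The cells were MC3T3 sc4, a subclone of an established calvarial osteoblast line grown without other cell types. They were held after confluence in osteogenic medium, with beta glycerol phosphate at 4 mM and ascorbic acid at 50 µg/ml, and on day 4 received fresh medium with 20 µM SAHA or its solvent DMSO. There were 3 groups of 4 arrays each: cells given DMSO, cells 2 h into SAHA and cells 6 h into SAHA. All cells were digested with collagenase for 40 min, with SAHA or solvent still present, before RNA was isolated. The time labels give 6 h for the third group, whereas the treatment text, the same for all samples, names only 2 h. The labels give DMSO no exposure time, so time after the medium change and SAHA cannot be told apart. Nor do they state whether the 4 samples in each group are independent cultures, and the p-values therefore reflect sample-to-sample spread that may be technical. The RNA is from whole plates, so that fewer cells carrying a transcript and less of it per cell cannot be told apart.

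Osteoclasts arise from cells of the monocyte and macrophage lineage, and they need at least a pair of signals that osteoblasts and their relatives provide. CSF1 (M-CSF), the product of Csf1, acts through the receptor CSF1R to keep precursors alive and dividing. RANKL, the product of Tnfsf11, acts through RANK, the product of Tnfrsf11a, and drives precursors to differentiate. Osteoprotegerin (OPG), the product of Tnfrsf11b, is a soluble decoy receptor that binds RANKL and keeps it from RANK. Semaphorin 3A, the product of Sema3a, is a secreted guidance protein that binds neuropilin-1 in complex with A-type plexins. It is known in mouse to restrain osteoclast differentiation and to favour osteoblast differentiation. Csf1 is thus a signal that promotes osteoclasts, while Tnfrsf11b and Sema3a restrain them.

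The RefSeq promoter table for build GRCm38.p6, which holds 250 bases before and 50 after each gene's start, matched 2 of the 3 genes, Csf1 and Sema3a, and not Tnfrsf11b. Both matched windows are shown, because these genes fell together at 6 h and moved apart at 2 h. Capitals mark the matches to the motifs searched on both strands.
Csf1, chr3:107760420-107760719, minus strand: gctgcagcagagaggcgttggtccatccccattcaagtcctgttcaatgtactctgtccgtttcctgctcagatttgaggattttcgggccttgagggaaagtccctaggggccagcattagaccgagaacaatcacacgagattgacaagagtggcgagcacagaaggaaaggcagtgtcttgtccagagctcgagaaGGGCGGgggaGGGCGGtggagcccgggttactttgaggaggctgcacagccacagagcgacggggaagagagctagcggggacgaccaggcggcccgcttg
Sema3a, chr5:13396534-13396833, plus strand: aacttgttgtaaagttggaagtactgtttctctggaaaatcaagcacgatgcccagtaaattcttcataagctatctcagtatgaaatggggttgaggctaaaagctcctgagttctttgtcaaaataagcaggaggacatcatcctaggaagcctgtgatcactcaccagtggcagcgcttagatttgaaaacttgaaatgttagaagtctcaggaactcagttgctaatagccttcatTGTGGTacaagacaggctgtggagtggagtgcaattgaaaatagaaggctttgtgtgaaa
The Csf1 window was richer in G and C, at 58.7%, than the Sema3a window, at 41.3%. The GC box GGGCGG, a site for SP-family factors, was matched at bases 200 to 205 and again at 210 to 215 of the Csf1 window. It had no match in the Sema3a window, and 35.7% of the table's 32851 promoters held it. TGTGGT, a core bound by RUNX factors, was matched at bases 241 to 246 of the Sema3a window and not in that of Csf1, and 16.8% of promoters held it. The AP-1 site, TGANTCA, matched in neither window and was held by 7.81% of promoters. Nor did the TATA box, with the letters TATAAA, match in either, against 13.6% of promoters. The same held for the box CCAAT, which 37.4% of promoters had. The motifs do not overlap one another in letters, and the matches are descriptions of these windows only.

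The groups overlapped in depth of detection: each array detected 14904 to 16065 probes, with a median intensity of 93.2 to 110.1. Markers of the osteoblast lineage were detected for 10 of the 11 listed genes with a probe in every group, Col1a1, Col1a2, Bglap, Ibsp and Sparc among them, and the osteocyte gene Dmp1 was undetected. Of those 10, each by its brightest probe, 3 fell at 6 h against DMSO, 0 rose and 7 did not pass. Over all genes 38% fell and 38.3% rose in that comparison. Dimmer probes of Ibsp rose by 0.17 and 0.20 (adjusted p = 0.0279 and 0.0435 in limma), while those of Sparc and Postn did not pass. Sp7, the osterix gene, fell by 4.23 on the log2 scale, and its dimmer probe was detected on none of the 6 h arrays and on all 4 DMSO arrays. Pth1r fell by 3.13 and Alpl, the alkaline phosphatase gene, by 1.15. Of 20 osteoclast and macrophage markers with a probe, 7 were detected in DMSO, 7 at 2 h and 6 at 6 h. Their summed intensity spanned 17884 to 22187 in DMSO, 16699 to 30007 at 2 h and 13137 to 17442 at 6 h. Acp5, Calcr, Dcstamp, Ocstamp, Ptprc, Tyrobp and Adgre1 were among those undetected in all 3 groups, while Ctsk, Mmp9, Nfatc1, Cd14 and Lyz2 were detected in each. Oscar and Csf1r were detected in DMSO and at 2 h but not at 6 h, and Itgb3 was detected at 6 h only. Of the 6 genes of this list in the test, 5 fell at 6 h against DMSO, where 38% of all genes fell. The median log2 change of the 6 was -0.40, or -0.36 with Csf1r at its bound. Cd14 fell by 1.63 and Ctsk by 0.38. The part of these marker changes in the results below was not tested. Markers of other lineages were detected for 5, 5 and 4 of 16 genes in the same order, among them Sox9, and 5 of those genes were in the test.

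All 3 genes were expressed in DMSO-treated cells and were lower after 6 h of SAHA, but they took different courses at 2 h. The transcript of the decoy receptor gene Tnfrsf11b was already 3.46-fold lower at 2 h and was 11.5-fold lower at 6 h. Csf1 was 1.28-fold higher at 2 h and 3.46-fold lower at 6 h. Sema3a was 1.35-fold lower at 2 h, a small change that depended on how the arrays were scaled, and 7.07-fold lower at 6 h on its brighter probe.

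**Figure D1:**
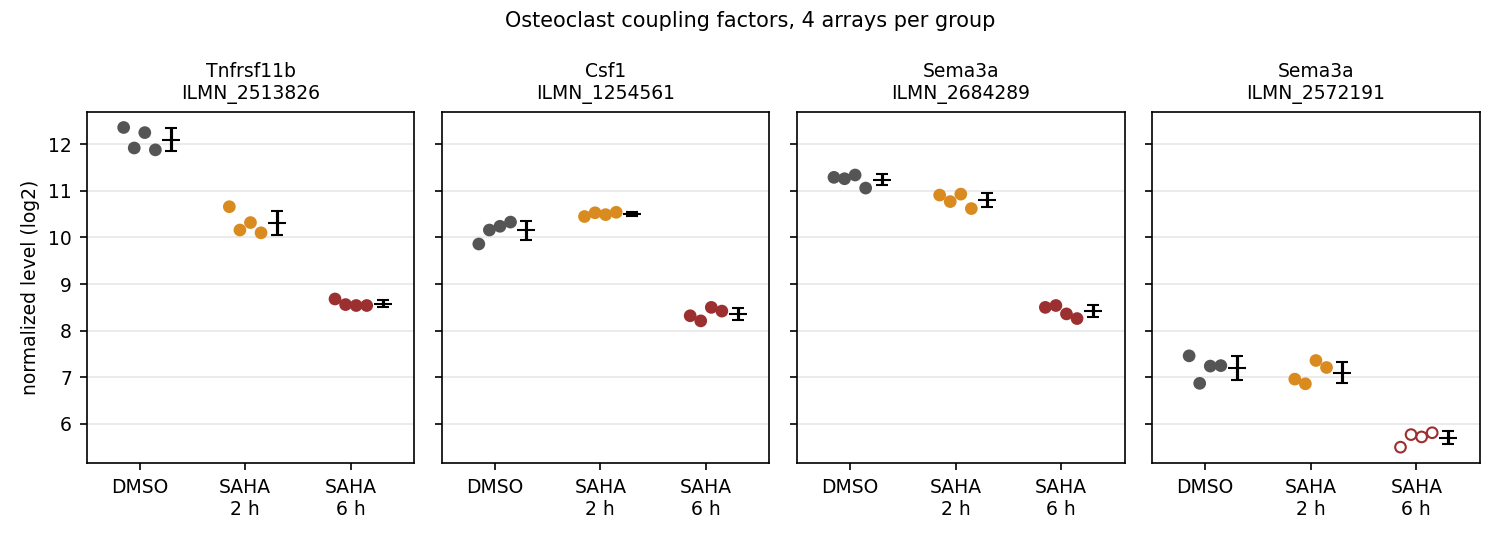
Normalized level (log2) of each of the 4 probes on every array, with DMSO, SAHA 2 h and SAHA 6 h along the horizontal axis. Points are arrays, filled where the probe was detected at p under 0.01 and hollow where it was not, and bars show the mean and SD (n = 4). The step down of Tnfrsf11b comes in both intervals, that of Csf1 and Sema3a mainly between 2 h and 6 h, and the Csf1 points at 2 h lie above those of DMSO.

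Tnfrsf11b had unnormalized signal intensities of 4618, 3492, 5157 and 3495 on the DMSO arrays, 2348, 1397, 1430 and 1019 at 2 h, and 483, 435, 353 and 420 at 6 h. The highest 2 h array was below the lowest DMSO array, and the highest 6 h array was below the lowest 2 h array, so no groups overlapped. On the normalized scale such separation was common, found for 49% of kept probes at 2 h and 65.9% at 6 h against DMSO, and 50% at 6 h against 2 h. The probe was detected on all 12 arrays. On the normalized log2 scale it averaged 12.1 ± 0.24 in DMSO, 10.31 ± 0.25 at 2 h and 8.58 ± 0.07 at 6 h (SD, n = 4 each). It was brighter than 89.2% of the kept probes in DMSO, than 68.85% at 2 h and than 44.5% at 6 h.

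At 2 h Tnfrsf11b fell by 1.79 ± 0.13 on the log2 scale against DMSO (SE; 95% interval -2.07 to -1.51; adjusted p = 8.35e-08, limma with Benjamini-Hochberg adjustment over all kept probes). The response to SAHA was broad, since 53.5% of all kept probes passed the test in this comparison, 27.3% by rising and 26.1% by falling, so passing alone sets no probe apart. The size of the change did: 3.39% of the kept probes fell at least 2-fold, and 44 of the 9153 genes had a lower change than Tnfrsf11b. At 6 h it fell by 3.52 ± 0.13 against DMSO (95% interval -3.80 to -3.24; adjusted p = 4.2e-11 in limma), in a comparison where 72.9% of kept probes passed, 36.9% by rising and 36% by falling, and 9.98% fell at least 2-fold. There 13 genes had a lower change. Between 2 h and 6 h of SAHA it fell by another 1.73 (95% interval -2.01 to -1.45; adjusted p = 1.22e-07 in limma), with 56.3% of kept probes passing, 29.4% by rising and 26.9% by falling, and 3.97% falling at least 2-fold. Falling at 2 h and again between 2 h and 6 h, as Tnfrsf11b did, was found for 1168 genes, or 12.8%. The 2 h and 6 h comparisons share the DMSO arrays, and the third shares the SAHA arrays with each.

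**Figure D2:**
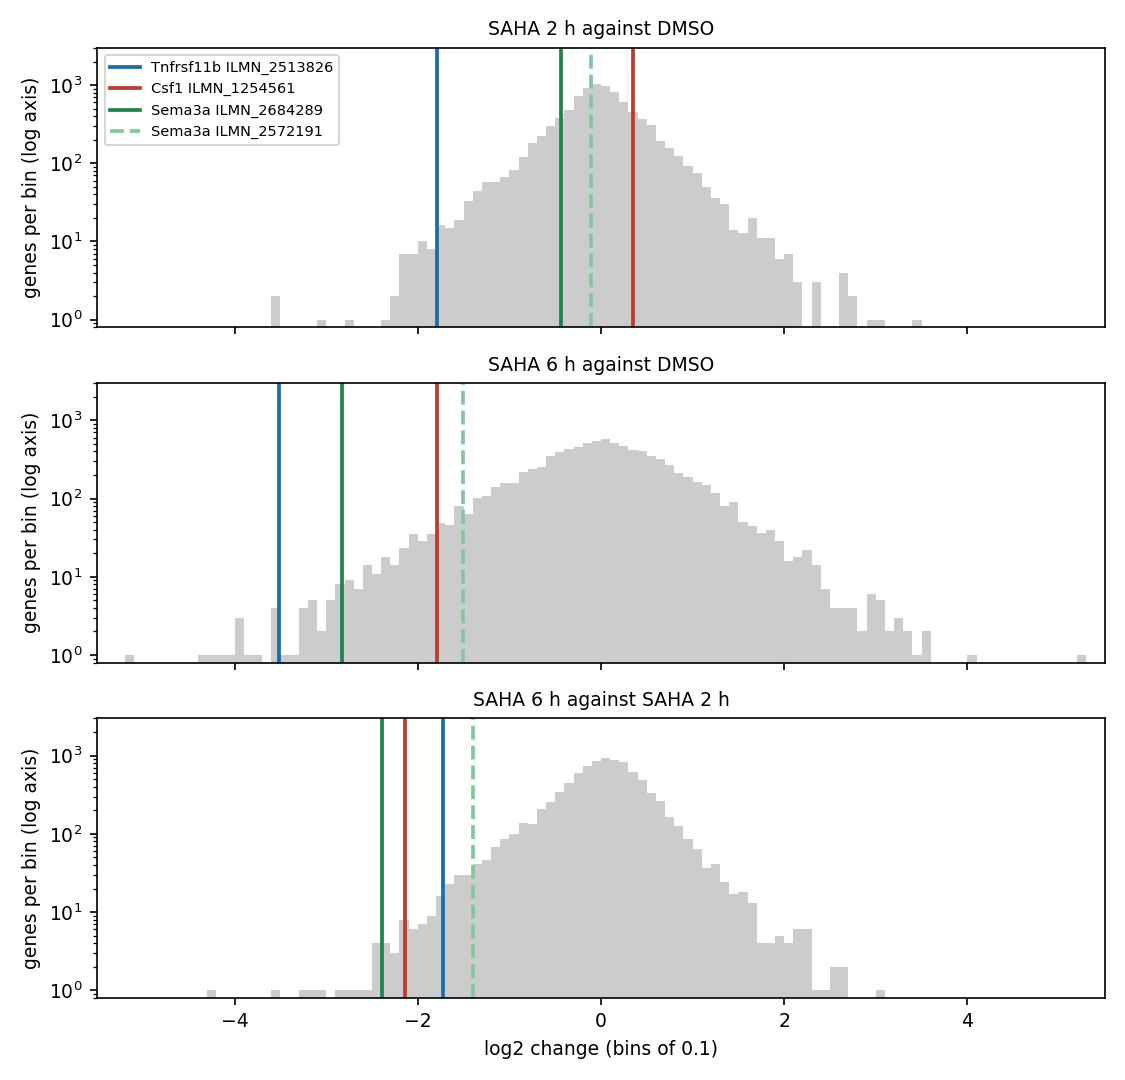
Distribution of log2 changes of the 9153 genes (grey, bins of 0.1 along the horizontal axis, genes per bin on a log axis) in each of the 3 comparisons, with a line at the change of each of the 4 probes. Tnfrsf11b lies in the low tail in every panel, with 44, 13 and 60 genes below it, while Csf1 lies to the right of zero at 2 h and in the low tail at 6 h.

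Csf1, the survival and growth signal for osteoclast precursors, had intensities of 911, 1080, 1411 and 1264 in DMSO, 2034, 1795, 1602 and 1355 at 2 h, and 395, 354, 344 and 394 at 6 h. Before normalization the lowest 2 h array, at 1355, was below the highest DMSO array, at 1411, so those groups overlapped, while every 6 h array was below every other array. After normalization the overlap was gone: Csf1 lay between 10.45 and 10.54 at 2 h and between 9.86 and 10.33 in DMSO on the log2 scale. The means were 10.15 ± 0.20 in DMSO, 10.5 ± 0.04 at 2 h and 8.36 ± 0.13 at 6 h (SD, n = 4 each), and the probe was detected on all 12 arrays.

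At 2 h Csf1 rose by 0.35 ± 0.10 on the log2 scale (SE; 95% interval 0.15 to 0.56; adjusted p = 0.00669 in limma), where 27.3% of kept probes rose. This was a common size of change: 1720 genes had a higher one. At 6 h it fell by 1.79 against DMSO (95% interval -1.99 to -1.58; adjusted p = 1.41e-09 in limma), and 239 genes had a lower change. From the 2 h arrays it fell by 2.14, which is 4.41-fold (95% interval -2.35 to -1.94; adjusted p = 1.2e-09 in limma), and 24 genes had a lower change in that comparison. The order of its levels was thus 2 h, DMSO, 6 h, with each step past the test. Rising at 2 h and falling at 6 h, each against DMSO, was found for 64 genes, 0.699% of those measured.

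Sema3a was measured by a pair of probes. ILMN_2684289, annotated to a RefSeq transcript of the gene, had intensities of 2329, 2255, 2908 and 2037 in DMSO, 2758, 2100, 2138 and 1418 at 2 h, and 438, 430, 320 and 361 at 6 h. The 2 h and DMSO arrays overlapped before normalization, and the 6 h arrays were far below both. On the log2 scale the probe averaged 11.24 ± 0.12 in DMSO, 10.81 ± 0.15 at 2 h and 8.42 ± 0.13 at 6 h (SD, n = 4 each), and these normalized groups did not overlap. It was detected on all 12 arrays.

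At 2 h this probe fell by 0.43 ± 0.09 on the log2 scale (SE; 95% interval -0.63 to -0.23; adjusted p = 0.00132 in limma), and 1479 genes had a lower change. With median scaling between arrays the change was -0.30 (adjusted p = 0.103 in limma), and with no normalization between arrays -0.22 (adjusted p = 0.382), so the call was lost. These scalings moved the median change of all genes to 0.10 and 0.19, against -0.02 with quantile normalization. Relative to that median Sema3a stood at -0.41 with quantile normalization and at -0.40 under either of the others. The share of called genes that rose at 2 h moved with the scaling in the same way, at 47.7% with quantile normalization, 63.3% with median scaling and 72.6% with none. At 6 h against 2 h these shares were 54.8%, 36.1% and 20.4%.

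The later change of Sema3a was large under every scaling. At 6 h the same probe fell by 2.82 ± 0.09 against DMSO (SE; 95% interval -3.02 to -2.62; adjusted p = 1.67e-11 in limma), with 37 genes lower. Against 2 h it fell by 2.39, which is 5.24-fold (95% interval -2.59 to -2.19; adjusted p = 3.95e-10 in limma), with 14 genes lower.

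ILMN_2572191, annotated to a cDNA clone of Sema3a, was a dim probe. Its intensities were 236, 173, 244 and 214 in DMSO, 250, 205, 246 and 193 at 2 h, and 114, 120, 112 and 126 at 6 h. It was detected on all 8 arrays of DMSO and 2 h and on none at 6 h. At 2 h its change was -0.11 ± 0.13 on the log2 scale (SE; 95% interval -0.39 to 0.18; adjusted p = 0.531 in limma), the groups overlapped, and it did not pass. That interval and the interval of the brighter probe overlap. At 6 h it had only a bound, at least 2.15-fold lower than in DMSO (fitted change -1.50, adjusted p = 2.02e-07 in limma) and at least 2.00-fold lower than at 2 h (fitted change -1.40, adjusted p = 1.14e-06). The bound sets the mean of the bright group against the lowest signal of probes detected on each 6 h array, or the probe's own signal where that was higher.

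The differences between the genes in their response were tested on the ratio of each gene pair within an array, with an exact permutation test, two-sided, over 3 pairs in 3 comparisons (n = 4 arrays a group). Its smallest possible p is 0.0286, and the 7 tests that reached it had an adjusted p of 0.0367 over the 9. At 2 h the change of Csf1 exceeded that of Tnfrsf11b by 2.14 on the log2 scale, a 4.41-fold shift of their ratio, and every 2 h array was above every DMSO array (adjusted exact p = 0.0367). The Sema3a change exceeded that of Tnfrsf11b by 1.36 and the Csf1 change exceeded that of Sema3a by 0.78 (adjusted exact p = 0.0367 for each). The 3 genes, each by its brightest probe, thus differed pairwise in their response at 2 h, with Csf1 up and Tnfrsf11b well down. The small fall of Sema3a was called with quantile normalization but not with median scaling or none, and its dim probe did not pass.

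At 6 h against DMSO all 3 had fallen, to different depths. The ratio of Csf1 to Tnfrsf11b was still 3.32-fold higher than in DMSO, that of Sema3a to Tnfrsf11b 1.62-fold higher and that of Csf1 to Sema3a 2.05-fold higher (adjusted exact p = 0.0367 for each). Between 2 h and 6 h the Sema3a change was lower than that of Tnfrsf11b by 0.66 on the log2 scale (difference -0.66, adjusted exact p = 0.0367). The change of Csf1 minus that of Tnfrsf11b was -0.41 in that interval (adjusted exact p = 0.0964), with array ratios of -0.36 to -0.05 at 6 h and -0.21 to 0.44 at 2 h. The change of Csf1 minus that of Sema3a was 0.25 (adjusted exact p = 0.171), with array ratios of -0.34 to 0.17 at 6 h and -0.46 to -0.08 at 2 h. Those last pairs overlapped between groups and did not pass, which does not show that the genes fell alike.

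**Figure D3:**
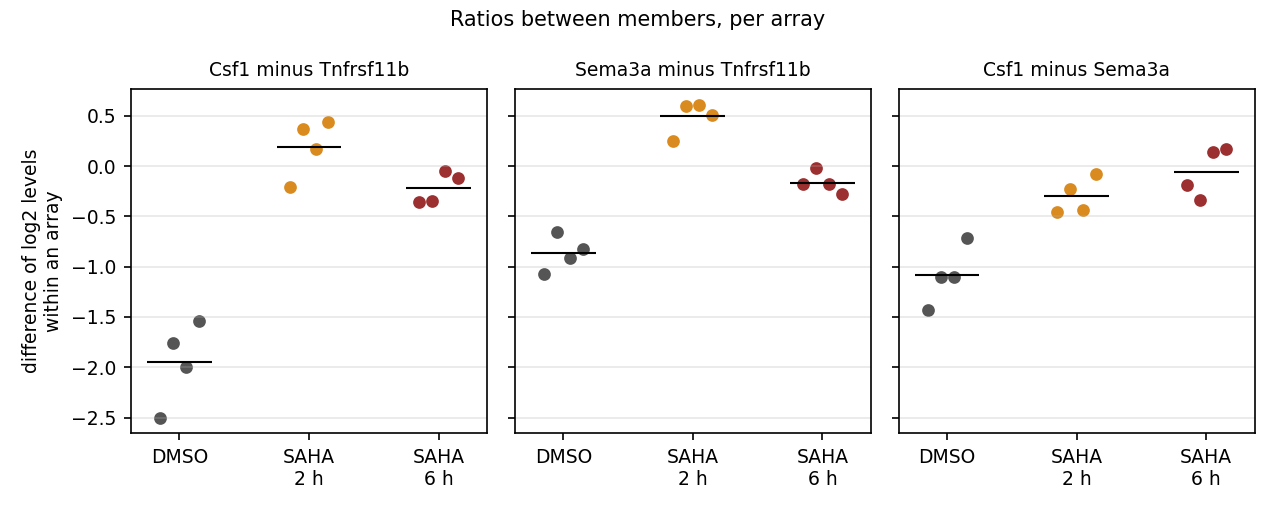
Difference of normalized log2 levels between 2 of the genes within each array (vertical axis), for DMSO, SAHA 2 h and SAHA 6 h, with points for arrays and a line at each group's mean (n = 4). The height of a panel depends on the probes and is not compared; the shift between groups shows that Csf1 minus Tnfrsf11b lay between -2.50 and -1.54 in DMSO, between -0.21 and 0.44 at 2 h and between -0.36 and -0.05 at 6 h.

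Genes whose course over the 12 arrays was most like each of the 3 were found by the root mean square difference of log2 levels, each centred on its own mean, with no test. For Tnfrsf11b they were Apobr (0.17), Kcnk2 (0.20), Fst (0.21), Dnm3os (0.23) and Nr1h4 (0.24). Fst encodes follistatin, a secreted antagonist of activins, and had log2 changes of -1.59 at 2 h and -3.19 at 6 h. Apobr and Nr1h4 were undetected on every 6 h array, so their depth at 6 h is not set. Kcnk2 was detected on 2 of the 4 arrays at 6 h, which limits its depth too. For Csf1 they were Tgfb3 (0.17), Anxa8 (0.22), Ccn4 (0.23), Arhgef6 (0.23) and Lxn (0.25). Tgfb3, a growth factor of the TGF-beta family, had log2 changes of 0.32 at 2 h and -1.54 at 6 h. For Sema3a they were Insc (0.14), Wnt10a (0.15), Cdh26 (0.17), Htra3 (0.18) and Rmdn2 (0.18). Wnt10a, a Wnt ligand, had log2 changes of -0.40 at 2 h and -2.80 at 6 h. Htra3 was undetected on every 6 h array, and Cdh26 and Rmdn2 were each detected on 1 of 4, so their depth at 6 h is limited likewise. Between the 3 genes themselves the same measure was larger, at 0.96 for Tnfrsf11b and Csf1, 0.57 for Tnfrsf11b and Sema3a, and 0.49 for Csf1 and Sema3a.

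The genes for RANKL and its receptors, and Il34 and Csf1r of the CSF1 pathway, were largely below detection. The probe for Tnfsf11, which encodes RANKL, was undetected on all 12 arrays, with intensities of 95.3 to 131 and a lowest detection p of 0.016. The ratio of RANKL to OPG transcript therefore could not be given, since its numerator had no measured level. The probes for Tnfrsf11a, which encodes RANK, for Lgr4, another RANKL receptor, and for Il34, the other ligand of CSF1R, were also undetected on all 12 arrays. Csf1r was detected on 3 of 4 DMSO arrays, 1 at 2 h and none at 6 h. Its fitted log2 change was -0.77 ± 0.11 at 6 h (adjusted p = 2.51e-05 in limma), with no bound above 1.

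Of 14 listed genes of the RANKL, OPG and CSF1 axis, 8 were measured, Tnfrsf11b and Csf1 among them. At 2 h 4 rose, 1 fell and 3 did not pass, with a median log2 change of 0.22, and at 6 h 4 rose and 4 fell, with a median of -0.08, or 0.30 with the undetected Csf1r at its bound. At 6 h against 2 h 3 rose, 4 fell and 1 did not pass, with a median of -0.20, or 0.08 at the bound. Over all genes the medians were -0.02 at 2 h, 0.01 at 6 h and 0.04 between them, and 56.6%, 76.4% and 60.9% of genes passed. At 2 h 27% of genes rose and 29.6% fell, at 6 h 38.3% rose and 38% fell, and between them 33.4% rose and 27.5% fell. The proteases that release membrane-bound ligands moved in both directions. Adam17, the sheddase that frees membrane CSF1 and TNF, rose by 0.34 ± 0.06 at 2 h and 1.17 ± 0.06 at 6 h (adjusted p = 0.000203 and 6.12e-10 in limma), and a further probe of it had changes of 0.40 and 0.86. Adam10, a related sheddase, rose by 0.85 at 6 h and Mmp14, a membrane metalloprotease that can shed RANKL, fell by 1.25. Traf6, the adaptor of RANK, rose by 0.41 at 2 h and by 0.61 at 6 h, though another of its probes did not pass at 6 h, at 0.13. Sdc1, a heparan sulfate proteoglycan, rose by 0.49 at 2 h and 0.64 at 6 h on its brightest probe, while another had changes of 0.21 and 0.37 and passed at neither time.

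**Figure D4:**
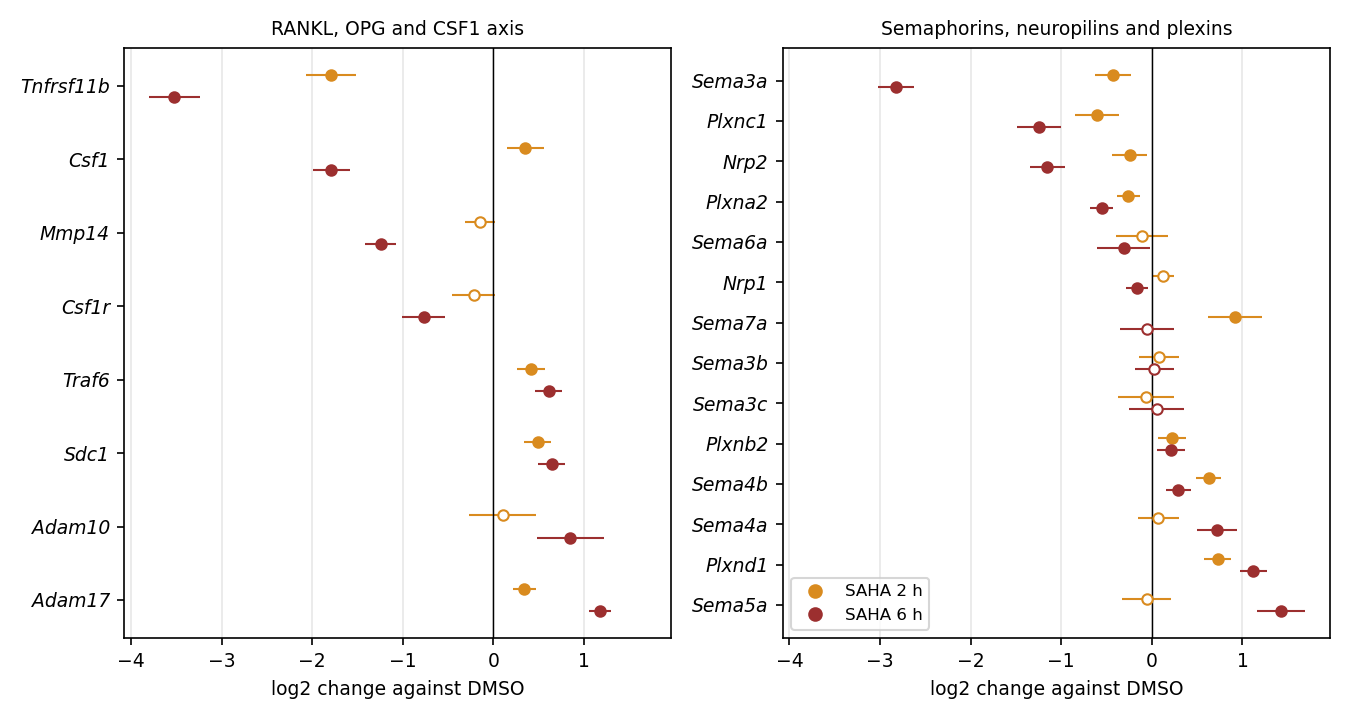
Log2 change against DMSO (horizontal axis) at SAHA 2 h and SAHA 6 h of the measured genes of the RANKL, OPG and CSF1 axis (left) and of the semaphorins, neuropilins and plexins (right), with 95% intervals and n = 4 arrays a group. Filled points passed at an adjusted p under 0.05 and hollow ones did not; Csf1r is plotted at its fitted change although undetected at 6 h. Tnfrsf11b at -3.52 and Sema3a at -2.82 are the lowest 6 h values plotted in their panels.

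Of 28 listed semaphorins, neuropilins and plexins, 14 were measured. At 2 h 4 rose, 4 fell and 6 did not pass; at 6 h 5 rose, 6 fell and 3 did not pass; and at 6 h against 2 h 3 rose, 7 fell and 4 did not pass, with median log2 changes of 0.01, -0.01 and -0.24. Sema3a had the lowest change among them at 6 h. The shares of all genes that rose and fell were 27% and 29.6% at 2 h, 38.3% and 38% at 6 h, and 33.4% and 27.5% between them. The receptors of class 3 semaphorins were measured in part. Nrp1, which encodes the SEMA3A co-receptor neuropilin-1, gave different answers by probe. Its brightest probe had a change of 0.12 at 2 h and did not pass, and fell by 0.16 ± 0.06 at 6 h. A further probe, ILMN_1247094, rose by 1.06 ± 0.12 at 2 h and by 0.58 at 6 h (adjusted p = 5.61e-06 and 0.000556 in limma), and the third had a change of 0.12 at 2 h, which did not pass, and fell by 0.26 at 6 h. The 6 h call of the brightest probe was lost with median scaling, with no normalization and without array 10, at -0.13. Nrp2 fell by 0.24 at 2 h, a call lost under those scalings and when array 1, 2, 3, 5, 6 or 7 was left out (changes of -0.25 to -0.21), and fell by 1.16 ± 0.09 at 6 h. Plxna2, an A-type plexin, fell by 0.26 at 2 h, lost under those scalings, and by 0.55 at 6 h, and the probes for Plxna1, Plxna3 and Plxna4 were undetected on all arrays.

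Other semaphorins took other courses. Sema7a, a membrane-anchored semaphorin, rose by 0.92 ± 0.14 at 2 h and had a change of -0.05 at 6 h, which did not pass. Sema5a had a change of -0.06 at 2 h and rose by 1.42 ± 0.12 at 6 h, although its other probes had changes of 1.30 and -0.32. Sema4b rose by 0.63 at 2 h and 0.29 at 6 h, the second call lost with no normalization between arrays, and Sema4a rose by 0.72 at 6 h. Sema6a fell by 0.31 at 6 h (adjusted p = 0.0493 in limma), a call lost in all 4 other scalings or sources of values tried and without array 1, 3, 4, 5, 6, 9, 10 or 12, at -0.34 to -0.22. Among the other plexins, Plxnd1 rose by 0.73 at 2 h and 1.12 at 6 h, Plxnb2 rose by 0.22 and 0.21 at 2 h and 6 h, calls lost without array 8 at 2 h and without array 11 at 6 h (0.17 for each) and at 6 h with median scaling or none, and Plxnc1, the receptor of SEMA7A, fell by 0.60 and 1.25. Sema3b and Sema3c did not pass in any comparison.

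Signals that promote osteoclasts were listed as 25 genes, of which 15 were measured, Csf1 among them. At 2 h 6 rose, 3 fell and 6 did not pass, and at 6 h 7 rose, 7 fell and 1 did not pass, with median log2 changes of 0.04 and -0.16. At 6 h against 2 h 5 rose, 4 fell and 6 did not pass, with a median of 0.03, or 0 at the bound, and 1 of those called, Il11, was undetected in both groups. Of all genes 27% rose and 29.6% fell at 2 h, 38.3% and 38% at 6 h, and 33.4% and 27.5% between them. Ptges, which makes the prostaglandin E2 that raises RANKL in osteoblasts, rose by 1.75 ± 0.07 at 2 h and 2.12 at 6 h (adjusted p = 6.56e-10 and 2.03e-11 in limma), and by 0.79 and 0.99 on another probe. Il11, a cytokine that favours osteoclast formation, was detected on none of the SAHA arrays and on all 4 DMSO arrays, at least 1.29-fold lower at 2 h. The chemokine gene Cx3cl1 rose by 0.72 at 2 h. Mmp14 at -1.25 and Igf1 at -1.12 stood with Csf1 among the genes of this list that fell at 6 h. The counts include Mmp14, Adam10 and Adam17, proteases that release membrane-bound ligands, which for Mmp14 can be RANKL. Whether those proteases promote or restrain osteoclasts was not tested.

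Signals that restrain osteoclasts were listed as 22 genes, of which 13 were measured, Tnfrsf11b and Sema3a among them. At 2 h 3 rose, 2 fell and 8 did not pass, and the pair that fell was Tnfrsf11b and Sema3a, the second with quantile normalization but not with median scaling or none. At 6 h 3 rose, 8 fell and 2 did not pass, and at 6 h against 2 h 2 rose, 8 fell and 3 did not pass, with median log2 changes of -0.01, -0.70 and -0.54 in the 3 comparisons. Tnfrsf11b and Sema3a were among the 8 that fell each time. Of all genes 27% rose and 29.6% fell at 2 h, 38.3% and 38% at 6 h, and 33.4% and 27.5% between them. The medians of all genes were -0.02, 0.01 and 0.04. Ccn4, a matricellular protein gene of the Wnt pathway, fell by 1.64 ± 0.05 at 6 h, and Timp1, a metalloprotease inhibitor, fell by 1.05 ± 0.08. Wnt4, a Wnt ligand that in mouse restrains osteoclasts, moved the other way, up by 1.20 ± 0.08 at 2 h and 1.92 at 6 h. Timp3 rose by 1.08 at 2 h and by 0.73 on another probe, but a further probe had a change of 0.02 and did not pass.

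Receptors and factors that act on the transcription of Tnfrsf11b, Tnfsf11 or Csf1 in osteoblasts were listed as 34 genes, of which 23 were measured. At 2 h 11 rose, 4 fell and 8 did not pass, at 6 h 11 rose, 8 fell and 4 did not pass, and at 6 h against 2 h 7 rose, 6 fell and 10 did not pass, with median log2 changes of 0.34, 0.36 and -0.08. With genes undetected in a group at their bounds the first pair of medians was 0.33 and 0.26. The medians of all genes were -0.02, 0.01 and 0.04 in the 3 comparisons. The shares of all genes that rose and fell were 27% and 29.6% at 2 h, 38.3% and 38% at 6 h, and 33.4% and 27.5% between them. Pth1r, the receptor through which parathyroid hormone lowers OPG and raises RANKL, fell by 3.13 ± 0.09 at 6 h (adjusted p = 4.7e-12 in limma), with its other probes at -3.26 and -3.18. Vdr, the vitamin D receptor, rose by 0.53 at 2 h and 1.09 at 6 h. Ebf1, a transcription factor of the EBF family whose member EBF2 raises OPG in mouse osteoblasts, had a change of 0.00 at 2 h and fell by 0.89 ± 0.06 at 6 h, and Ebf2 itself was undetected on all arrays. Esr1, the oestrogen receptor alpha gene, fell by 1.64 ± 0.14 at 6 h, where it was detected on 1 of 4 arrays. Fos, an AP-1 subunit gene, rose by 1.51 ± 0.19 at 2 h, Lrp6, a Wnt co-receptor gene, rose by 0.64, and Rela, an NF-kappaB subunit gene, fell by 0.49 at 2 h, a call lost with no normalization between arrays. Gja1, a gap junction protein gene, fell by 1.26 ± 0.06 at 6 h, and Lifr, the LIF receptor gene, rose by 1.25. Il6 was undetected on all arrays.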

How the data were processed

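Total RNA of 12 samples of MC3T3 sc4 cells was labelled and hybridised to an Illumina mouse BeadChip. Per the file headers, the deposited table that was not normalized gives a linear signal intensity and a detection p-value for each probe and array. The authors' normalized intensity values were used as an alternative; how they were normalized is not given in the sources used here. Intensities were background-corrected (normexp with detection p-values, offset 16), quantile-normalized and log2-transformed by neqc in limma 3.58.1 (R 4.3.3), which can remove a shift shared by all genes and shrinks changes of dim probes. Of 45281 probes, 16431 with a detection p under 0.01 on at least 4 arrays were kept, and a gene stood by its brightest kept probe with 1 symbol in the platform annotation, in which 18 probes carried several. A linear model with 3 group means and empirical Bayes moderation was fitted over all 12 arrays, with Benjamini-Hochberg adjustment over all kept probes and calls at an adjusted p under 0.05; it was tested on simulated data. Precision is limited by how many arrays there are, and the median SE of a log2 change was 0.09. The genes and gene lists were chosen with earlier results of these data known. Named were the 3 genes with every probe, receptors, ligands and regulators chosen by name, up to 4 called genes of each list per comparison with the smallest p, every called gene of both axes, and the 5 genes nearest to each of the 3. Replicate numbers stand only on the authors' normalized columns. Deviations of same-numbered samples from their group means correlated at 0.17 to 0.394 between 2 h and DMSO. They correlated at 0.168 to 0.348 between 6 h and 2 h, and at 0.013 to 0.121 between 6 h and DMSO. The best match was the sample of the same number in 8 of 12 pairs, so these values do not settle whether the samples were paired. Alternatives covered background correction, scaling between arrays, the probe filter, which features and samples were fitted, array weights, the variance model, the threshold, the replicate block and leaving out each array in turn. Lists of osteoblast markers (10 measured: 2, 3 and 3 fell and 0 rose at 2 h, 6 h and 6 h against 2 h), osteoclast and macrophage markers (6 measured: 1, 0 and 0 rose and 1, 5 and 5 fell), other lineage markers (5 measured: 0, 0 and 1 rose and 2, 2 and 2 fell) and housekeeping genes (9 measured: 0, 2 and 1 rose and 1, 2 and 2 fell) were counted the same way. Over all genes 27%, 38.3% and 33.4% rose and 29.6%, 38% and 27.5% fell in the same order.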

Additional observations from a re-analysis of the deposited data

Results flagged for a closer look

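Tnfrsf11b on array 9 of SAHA 6 h, with a normalized level of 8.68 on the log2 scale, stood apart from the other arrays of its group, at 8.54 to 8.56. The gap was 0.848 of the group's whole range, in a group whose range was small. Of 12 groups of 4 arrays checked, this was the 1 that stood out, and chance flags about 1 in 20.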

How the results depend on the processing

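Over 26 alternative settings, 12 of them leaving out 1 array, 874 of 882 values were counted as the same. Called values had to keep their direction and side of the threshold, and counts had to stay within 1.5 times. A value that did not pass had only to stay so, whatever its sign. The dim Sema3a probe at 2 h thus ranged from -0.11 to 0.06 in the settings other than leaving out an array. Gene ratios with an array left out were compared with the SD of the ratio. The cause of the 8 values not counted as the same was not tested. The 2 h change of the brighter Sema3a probe was -0.30 (adjusted p = 0.103) with median scaling and -0.22 (adjusted p = 0.382) with no normalization. Semaphorin axis genes called at 2 h numbered 5 with median scaling and 5 with none, against 8, and at 6 h 7 with none, against 11. With no normalization 3236 genes were called at 2 h, against 5184, and 5852 probes and 3297 genes at 6 h against 2 h, against 9253 and 5576. With 1 array left out, Tnfrsf11b ranged from -1.91 to -1.70 at 2 h and from -3.60 to -3.44 at 6 h, Csf1 from 0.26 to 0.41 and from -1.89 to -1.73, and the brighter Sema3a probe from -0.49 to -0.37 and from -2.88 to -2.77. The dim Sema3a probe was not in the fit with 1 probe per gene or with detection required on all 12 arrays, and its fitted 6 h change ranged from -1.52 to -0.76 in the settings other than leaving out an array. With an array left out, only the values of the gene ratios were compared, and not their p-values. With the replicate number as a block, possible only on the authors' normalized values, no call of the 4 probes changed: Tnfrsf11b was at -1.70 and -3.26, Csf1 at 0.35 and -1.58 and Sema3a at -0.42 and -2.58 at 2 h and 6 h, and 9753, 12429 and 10081 probes were called in the 3 comparisons. Dim probes near background limit the depth of a fall that can be read.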
